A study of Mus musculus with 12 samples.

Results

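The genes described here are 9 genes of mitochondrial apoptosis: the transcription factor gene Trp53, the pro-death effectors Bax and Bak1, the BH3-only activators Bbc3, Pmaip1 and Bcl2l11, and the pro-survival genes Bcl2, Bcl2l1 and Mcl1. They were taken by symbol from a table of 50600 gene entries; the rule uses no measured value, but the set was proposed with earlier results of these data known. All 9 were present, and all 9 were among the 14266 genes whose mean normalized count over the libraries was at least 10. Every library came from cultured neural stem cells (NSCs) of the adult mouse dentate gyrus (DG), of wild type C57Bl6J mice aged 6 weeks. The study's methods describe NSC lines grown from the pooled DG of 4 male or 4 female mice, and the sex of the line sequenced is not given in the sources used here. Cells of passage 4 were grown with EGF and FGF2, each at 20 ng/ml, and plated at 75000 per well. Wells received 1 µM TFB-TBOA, a blocker of excitatory amino acid transporters (EAATs), or vehicle, and 15 min later 100 µM glutamate or vehicle, and RNA was collected 48 h after treatment. The 4 groups of 3 wells were Veh-Veh (vehicle only), Veh-Glut (glutamate only), TFBTBOA-Veh (inhibitor only) and TFBTBOA-Glut (both). The design asks whether glutamate changes NSC transcripts, and whether blocking its transport does. A "±" below gives the SD of 3 wells. No source says that the wells came from separate cultures, so p-values measure the spread between wells, which may be technical.

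Mitochondrial apoptosis is set by the balance between BCL2 family proteins. BAX and BAK1 open pores in the outer mitochondrial membrane, BCL2, BCL-XL (the long product of Bcl2l1) and MCL1 hold them in check, and BH3-only proteins such as PUMA (Bbc3), NOXA (Pmaip1) and BIM (Bcl2l11) release that check. p53, encoded by Trp53, is stabilized after DNA damage and other stress and raises transcription of Bbc3, Pmaip1 and Bax. In neurons, excess extracellular glutamate can cause excitotoxic death through calcium entry, and EAATs remove glutamate from the extracellular space. Much of the control of p53, BAX and BCL2 proteins acts after transcription, and transcript levels do not measure cell death.

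The libraries held 13064545 to 18372691 recovered reads, and their normalized totals were 14900486 to 15411418. The NSC label was checked against 8 markers. All 8 had a mean of at least 10, led by Slc1a3, Nes, Fabp7 and Vim, and their summed normalized count was 103771 to 118379 per library. The means of the others were 4581 for Sox9, 396 for Pax6, 189 for Sox2 and 101 for Hopx. Olig1 of the oligodendrocyte lineage, at 45116, was above each of the 8. Summed markers were 3071 to 3972 for astrocytes, 11077 to 13563 for neuroblasts and neurons (mainly Map2), 42545 to 53407 for the oligodendrocyte lineage (mainly Olig1), 11.8 to 52.8 for microglia and 0 to 50.5 for endothelium. Gjb6 of astrocytes and Cx3cr1 of microglia were at 0 in all 12 libraries, Aqp4 of astrocytes was at 0 in 8, Dcx of neuroblasts in 7 and Mog of oligodendrocytes in 10. Other markers of these lists were above 0 in every library, with means of 3267 for Aldh1l1, 111 for S100b and 39.6 for Gfap of astrocytes, 28.1 for P2ry12 of microglia, and 1452 for Olig2 and 57.5 for Pdgfra of the oligodendrocyte lineage. In bulk RNA, fewer cells of a type and less RNA per cell cannot be told apart.

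Bcl2l1 was the only member past the threshold, and its promoter sequence is shown because it is the gene on which the results turn. Bcl2l1 lies on the minus strand of GRCm38 at chr2:152780668-152831728 (GENCODE M21). RefSeq gives 3 windows of 300 bases (250 before and 50 after a start) for this gene, and the one at the most upstream start, on the minus strand at chr2:152831679-152831978 of GRCm38.p6, is printed with GGAATG, a motif of TEAD factors, in capitals.
Bcl2l1 promoter: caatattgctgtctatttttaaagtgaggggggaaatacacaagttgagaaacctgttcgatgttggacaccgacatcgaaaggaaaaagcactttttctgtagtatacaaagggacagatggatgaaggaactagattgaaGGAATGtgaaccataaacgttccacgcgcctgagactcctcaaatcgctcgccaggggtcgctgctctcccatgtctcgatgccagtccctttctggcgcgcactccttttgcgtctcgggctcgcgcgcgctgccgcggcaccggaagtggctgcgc
The motif begins 108 bases before the start. Over the 13 windows of 8 members, GGAATG was found in 2 (15.4%, Bcl2l1 and Mcl1), and 14.7% of all 32851 promoter windows of the same length hold it on either strand. TTCNNNGAA, the letters of a STAT site, were in 0 of the 13 windows and in 8.3% of all windows, also searched on both strands. The p53 half-site was in 2 of the 13, those of Bax and Trp53, against 8.36% of all windows. Pmaip1 was not searched. These 2 matches are printed because p53 is the upstream factor of the set, with the half-site in capitals, for Bax on the minus strand at chr7:45467080-45467109 (starting 201 bases before the start) and for Trp53 on the plus strand at chr11:69580274-69580303 (starting 75 bases before it).
Bax half-site: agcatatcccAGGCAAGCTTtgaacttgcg
Trp53 half-site: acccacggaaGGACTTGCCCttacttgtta
The matches of different motifs fell in different genes, so none overlap, and a match is a description of sequence, not of binding.

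Per kilobase of exon, Bax transcripts were the most abundant of the set in Veh-Veh. The normalized count per kilobase was 2602 ± 84.0 for Bax, 499 ± 18.3 for Trp53 and 323 ± 24.3 for Bcl2l1. Below these stood Pmaip1 at 226, Mcl1 at 142 and Bbc3 at 107, then Bcl2l11 at 47.5, Bcl2 at 46.9 and Bak1 at 16.3. Of neighbours in this order, only Bcl2l11 and Bcl2 overlapped in the range of their 3 wells. The effector pair was thus unequal at the transcript level, with Bax far above Bak1, and among the 3 pro-survival genes Bcl2l1 led and Bcl2 was lowest. The order uses merged exon lengths of the annotation and not the isoforms in use.

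**Figure D1:**
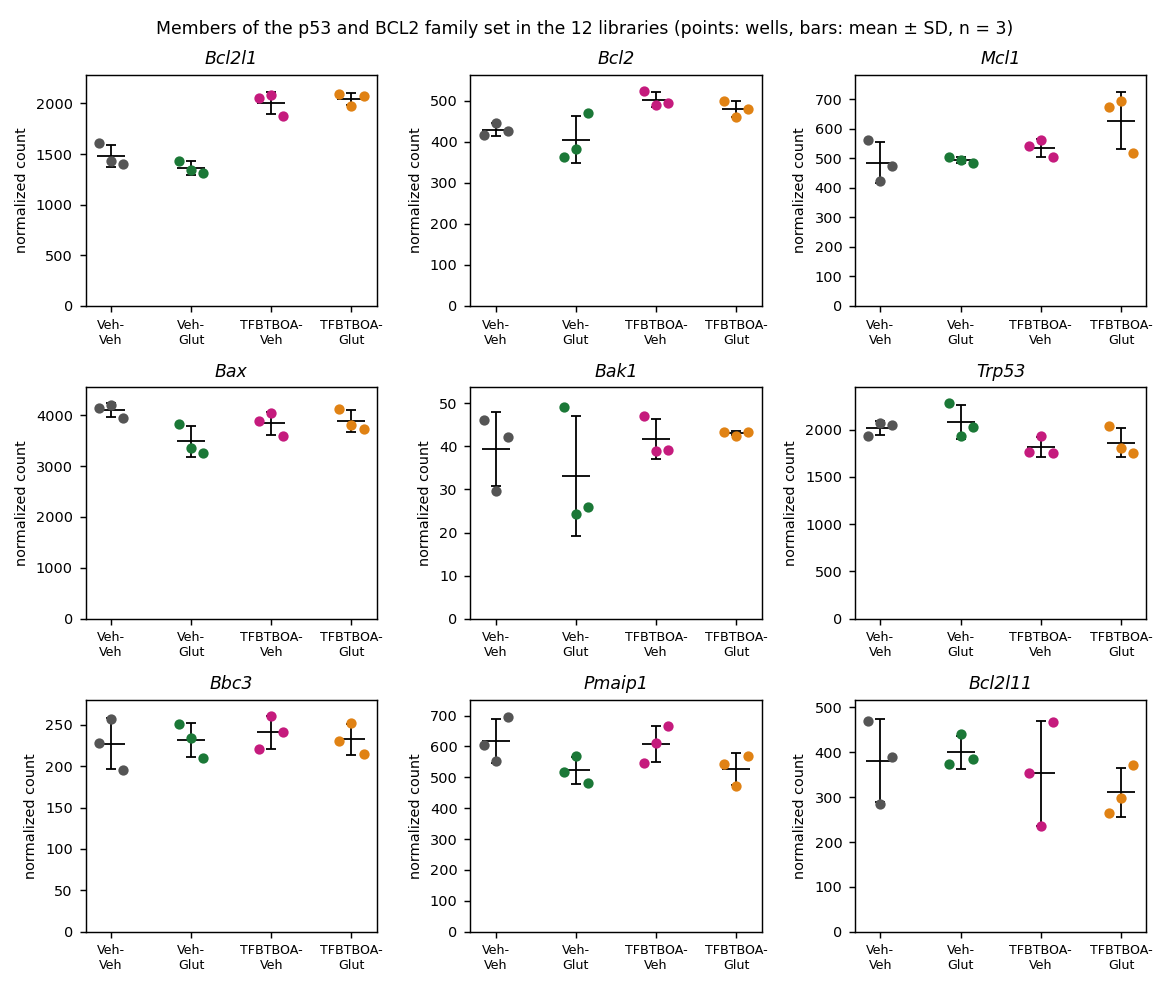
Normalized count (vertical axis, from 0) of each of the 9 members in the 4 groups (horizontal axis), with 1 point per well and a bar for the mean ± SD of 3 wells. In the Bcl2l1 panel the 6 wells with TFB-TBOA sit between 1881 and 2092, above the 6 without it at 1308 to 1609, and in no other panel do the 6 wells with inhibitor stand apart from the 6 without it.

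Bcl2l1, the gene of the anti-apoptotic protein BCL-XL, was higher in every well that received TFB-TBOA. Its normalized counts were 1609, 1429 and 1405 in Veh-Veh and 1435, 1346 and 1308 in Veh-Glut. They were 2051, 2086 and 1881 in TFBTBOA-Veh and 2092, 1977 and 2070 in TFBTBOA-Glut. The groups with inhibitor did not overlap those without it, while the groups with and without glutamate overlapped on either side. Averaged over both glutamate states, the inhibitor raised Bcl2l1 by 0.51 on the log2 scale (SE 0.0580, 95% interval 0.39 to 0.64, 1.43-fold, limma adjusted p = 6.87e-05). In this comparison 1 of the 9 members was called, where 7.52% of all genes tested were, and 1 of 9 had non-overlapping groups, where 4.28% of all genes did. By limma 4 of 9 had an unadjusted p under 0.05, where 21.3% of all genes did. They were Bcl2l1, Bcl2 (0.0128), Trp53 (0.0221) and Mcl1 (0.0231). Bcl2l1 ranked 41 by p among the 14266 genes.

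The rise was seen in each glutamate state taken alone. Without glutamate, TFBTBOA-Veh exceeded Veh-Veh by 0.44 (SE 0.0879, limma adjusted p = 0.0386), as 1 of 9 members called where 1.03% of all genes were. With glutamate, TFBTBOA-Glut exceeded Veh-Glut by 0.59 (SE 0.0892, limma adjusted p = 0.00801), again as 1 of 9, where 2.18% of all genes were called. The inhibitor effects with and without glutamate differed by 0.15 (95% interval -0.10 to 0.39, limma adjusted p = 0.785), so a difference between them was not detectable. Glutamate itself gave -0.12 without inhibitor and 0.03 with it (limma adjusted p = 0.715 and 1.00). Both 3-against-3 calls were thin: the call without glutamate was lost on leaving out any 1 of its 6 libraries (adjusted p = 0.0615 to 0.175), and the call with glutamate on leaving out Veh-Glut 2, Veh-Glut 3 or TFBTBOA-Glut 1 (adjusted p = 0.0516, 0.0519 and 0.0557). The call over both states held without each of the 12 libraries (adjusted p = 0.000121 to 0.000472).

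Some marker sums moved with these groups. The oligodendrocyte-lineage sum was 47492 to 53407 in Veh-Veh and 43128 to 46336 in TFBTBOA-Veh, and the NSC sum was 103771 to 107369 in Veh-Glut and 112369 to 118379 in TFBTBOA-Glut, without overlap in either pair. With glutamate the oligodendrocyte-lineage sum overlapped, at 42544.9 to 48582.5 in Veh-Glut and 42702.4 to 46685.1 in TFBTBOA-Glut. Without glutamate the NSC sum overlapped, at 111347 to 115004 in Veh-Veh and 110828 to 115981 in TFBTBOA-Veh. The astrocyte sum was 3538 to 3972 in Veh-Glut and 3328 to 3564 in TFBTBOA-Glut, with overlap. Their part in the Bcl2l1 result was not tested. The exon counts do not separate the long and short products of Bcl2l1, which are known to act in opposite directions.

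The other pro-survival genes did not pass the threshold. Bcl2, the founding inhibitor of the family, had normalized counts of 417, 446 and 426 in Veh-Veh, 364, 382 and 472 in Veh-Glut, 524, 491 and 494 in TFBTBOA-Veh, and 501, 461 and 481 in TFBTBOA-Glut. TFBTBOA-Veh stood wholly above Veh-Veh, and with glutamate 1 Veh-Glut well at 472 lay within the TFBTBOA-Glut range. Over both states the difference was 0.24 (SE 0.0850, 1.18-fold, limma adjusted p = 0.106). Mcl1, which encodes a short-lived inhibitor of BAK1 and BAX, had 560, 422 and 473 in Veh-Veh, 505, 493 and 484 in Veh-Glut, 541, 560 and 503 in TFBTBOA-Veh, and 671, 693 and 517 in TFBTBOA-Glut. The TFBTBOA-Glut wells stood above all Veh-Glut wells, with 1 of them, at 517, close to that group. The difference was 0.33 with glutamate (SE 0.139, limma adjusted p = 0.234) and 0.24 over both states (SE 0.0953, limma adjusted p = 0.149). The fitted inhibitor effect was positive in both glutamate states for these 3 genes, and also for the pro-death genes Bak1 (0.10 without and 0.44 with glutamate) and Bbc3 (0.09 and 0.0049), and only that of Bcl2l1 was called. The sign turned in single runs without 1 library for Bbc3 in both states and for Bak1 without glutamate. Of the 9 members, 5 were positive without glutamate and 7 with it.

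**Figure D2:**
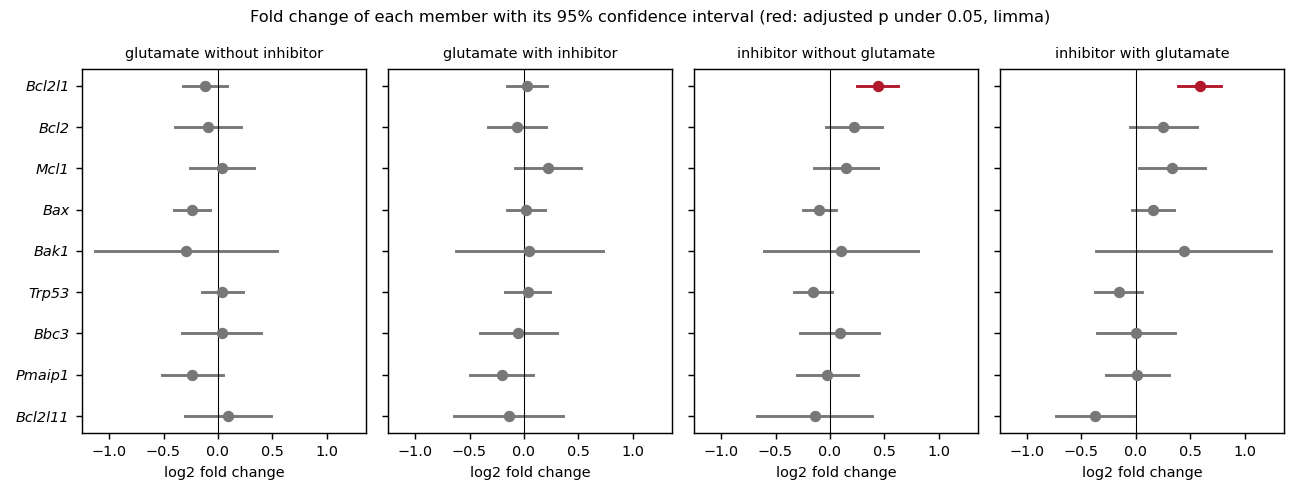
Log2 fold change (horizontal axis) of the 9 members in the 4 pairwise comparisons, with a point for the estimate, a line for its 95% confidence interval from limma, and red for an adjusted p under the threshold. Bcl2l1 is red at 0.44 and 0.59 in the panels of the inhibitor, and the intervals of Bak1 are the widest.

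Bax, the effector gene with the more abundant transcripts here, was lower in Veh-Glut than in Veh-Veh, without passing the threshold. Its normalized counts were 4148, 4203 and 3951 in Veh-Veh, 3830, 3359 and 3260 in Veh-Glut, 3882, 4043 and 3591 in TFBTBOA-Veh, and 4127, 3803 and 3728 in TFBTBOA-Glut. The Veh-Glut wells lay below all Veh-Veh wells, and the groups with inhibitor overlapped each other. The glutamate difference was -0.24 without inhibitor (SE 0.0772, unadjusted p = 0.00986 and adjusted p = 0.387 by limma) and 0.02 with it (adjusted p = 1.00). Bax was the 1 of 9 members with groups apart, where 14.4% of all genes had groups apart, and 0 of 9 members were called by limma, where 0.161% of all genes were, with 1 of 9 at an unadjusted p under 0.05, where 9.51% of all genes were. edgeR called 0 of 9, and 19 genes higher and 4 lower of all tested, and DESeq2 0 of 9, and 102 higher and 58 lower. The change in the glutamate effect with the inhibitor was 0.26 for Bax (SE 0.108, unadjusted p = 0.0305 and adjusted p = 0.688 by limma), and 0 of 9 members were called for it, where 0.014% of all genes were. The NSC marker sum was also lower in Veh-Glut (103771 to 107369) than in Veh-Veh (111347 to 115004) and the astrocyte sum higher (3538 to 3972 against 3074 to 3390), and their part in the Bax values was not tested.

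Bak1, the second effector, was close to the floor of the measurement. Its normalized counts were 46.1, 29.7 and 42.1 in Veh-Veh, 49.1, 24.2 and 25.9 in Veh-Glut, 47.0, 38.9 and 39.2 in TFBTBOA-Veh, and 43.3, 42.4 and 43.2 in TFBTBOA-Glut. All pairs of groups compared overlapped, and the wells of Veh-Glut varied by 42.0% of their mean. The widest pairwise interval was that of glutamate without inhibitor, -1.13 to 0.55 on the log2 scale, so neither a rise nor a fall of Bak1 of moderate size was detectable. Bak1 shares up to 437 bases of exon with Ggnbp1 on the opposite strand (18.2% of its exon length), whose mean was 21.5, and since strand was not marked in these libraries, reads of both genes cannot be told apart there. Bcl2 shares 558 bases with an antisense gene, D630008O14Rik, whose mean was 1.22. Bax shares 192 bases (12.2% of its exon length) with Gm45808 on the same strand, whose mean was 0. The effect of that overlap on the Bax count was not tested.

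Trp53 did not pass the threshold in any comparison. Its normalized counts were 1934, 2074 and 2045 in Veh-Veh, 2278, 1930 and 2029 in Veh-Glut, 1760, 1933 and 1750 in TFBTBOA-Veh, and 2033, 1802 and 1750 in TFBTBOA-Glut. TFBTBOA-Veh stood below Veh-Veh, with its highest well at 1933 just under the lowest at 1934, and with glutamate the groups overlapped. The inhibitor difference over both states was -0.16 (SE 0.0615, unadjusted p = 0.0221 and adjusted p = 0.146 by limma). Glutamate gave 0.04 in both inhibitor states (limma adjusted p = 0.907 and 1.00). Without glutamate, Trp53, Bcl2 and Bcl2l1 were the 3 of 9 members whose inhibitor groups did not overlap, where 16.8% of all genes had groups apart.

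The BH3-only genes gave no call in any comparison. Bcl2l11, whose protein BIM binds all pro-survival members, had normalized counts of 470, 284 and 391 in Veh-Veh, 374, 442 and 385 in Veh-Glut, 354, 236 and 469 in TFBTBOA-Veh, and 264, 297 and 372 in TFBTBOA-Glut. The groups without glutamate overlapped widely, and with glutamate the highest TFBTBOA-Glut well, 372, was just under the lowest Veh-Glut well, 374. That difference was -0.37 (SE 0.163, unadjusted p = 0.0418 and adjusted p = 0.252 by limma). Bcl2l11, Bcl2l1 and Mcl1 were the 3 of 9 members with groups apart for the inhibitor with glutamate, where 23.2% of all genes had groups apart.

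Pmaip1, whose protein NOXA neutralizes MCL1, had normalized counts of 603, 554 and 696 in Veh-Veh, 517, 568 and 483 in Veh-Glut, 548, 610 and 665 in TFBTBOA-Veh, and 542, 470 and 568 in TFBTBOA-Glut. The glutamate groups were lower on average and overlapped their controls. The glutamate difference was -0.24 without inhibitor and -0.20 with it (SE 0.128 and 0.132, limma adjusted p = 0.587 and 1.00). Bbc3, whose protein PUMA binds every pro-survival member, had normalized counts of 228, 258 and 196 in Veh-Veh, 251, 234 and 210 in Veh-Glut, 221, 261 and 241 in TFBTBOA-Veh, and 230, 252 and 215 in TFBTBOA-Glut. All its groups overlapped, and its fold changes over the 4 pairwise comparisons were between -0.05 and 0.09. For glutamate with inhibitor 0 of the 9 members were called, where 0% of all genes were, and 0 of 9 had groups apart, where 8.96% of all genes did; 537 of 14266 genes had an unadjusted p under 0.05 by limma, and DESeq2 called 1 gene of all tested.

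**Figure D3:**
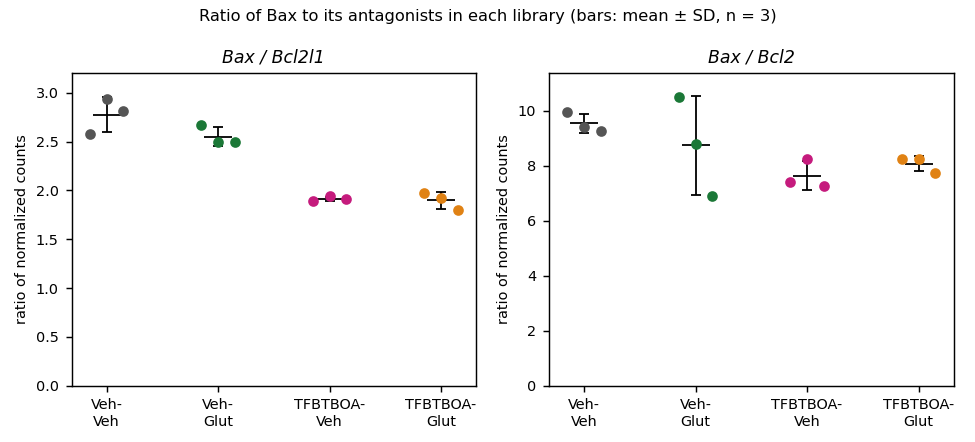
Ratio of the normalized count of Bax to that of Bcl2l1 (left) and of Bcl2 (right) in each library, with 1 point per well and bars for the mean ± SD of 3 wells in each of the 4 groups. The ratio to Bcl2l1 is 1.80 to 1.97 in the 6 wells with TFB-TBOA and 2.49 to 2.94 in the 6 without it.

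The ratio of effector to antagonist transcripts is given as a description, with no test, since both genes are members. Bax relative to Bcl2l1 was 2.78 ± 0.184 for Veh-Veh and 2.55 ± 0.102 for Veh-Glut, against 1.91 ± 0.0227 for TFBTBOA-Veh and 1.90 ± 0.0889 for TFBTBOA-Glut. The groups with inhibitor were lower and did not overlap those without. Bax itself gave 0.03 for the inhibitor over both states (limma adjusted p = 0.795), so this split largely restates that of Bcl2l1. Bax relative to Bcl2 was 9.54 ± 0.356, 8.74 ± 1.80, 7.64 ± 0.518 and 8.08 ± 0.286 in the same order. The Veh-Glut wells, from 6.91 to 10.5, spanned all other groups for this ratio. The ratios are of normalized counts and carry the unequal exon lengths of the genes.

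The 3 genes whose pattern was most like that of Bcl2l1 were Ppp1r1a, Ptrf and Ctgf, with Pearson r of 0.964, 0.957 and 0.956 over the 12 libraries. The libraries form separate sets by inhibitor, so these values largely describe that split. Within the 6 libraries with inhibitor r was 0.636, -0.144 and -0.0453, and within the 6 without it 0.684, 0.450 and 0.264. The mean normalized count of Ctgf, which encodes a secreted matrix-associated protein, was 221 ± 4.90 in Veh-Veh and 977 ± 75.6 in TFBTBOA-Veh, and that of Ptrf, which encodes a coat protein of caveolae, was 2168 ± 155 and 3406 ± 31.4. Ppp1r1a, which encodes an inhibitor of protein phosphatase, stood at 109 ± 10.6 and 231 ± 40.3.

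Around these members stand 8 lists of 90 further genes of cell death, of which 79 were tested. For either glutamate comparison, for the inhibitor without glutamate and for the interaction, 0 of the 79 were called, where 0.161%, 0%, 1.03% and 0.014% of all genes were. Of them 11, 4, 10 and 7 had an unadjusted p under 0.05 by limma, or 13.9%, 5.06%, 12.7% and 8.86%, where 9.51%, 3.76%, 11.4% and 6.95% of all genes did. For the inhibitor with glutamate 1 of 79 was called, where 2.18% of all genes were, and 17 (21.5%, against 18.3% of all genes) had an unadjusted p under 0.05, and over both glutamate states 4 were called, where 7.52% of all genes were, and 19 (24.1%, against 21.3%) did. The counts of single lists below, at most 1 called in each, are to be read against the same 7.52% for both states.

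Casp6, an executioner caspase, rose with the inhibitor over both glutamate states. Its normalized counts were 235, 245 and 312 in Veh-Veh, 214, 210 and 239 in Veh-Glut, 321, 320 and 336 in TFBTBOA-Veh, and 338, 318 and 362 in TFBTBOA-Glut. The 6 wells with inhibitor stood above the 6 without it. The difference was 0.47 (SE 0.101, limma adjusted p = 0.00989), and it held its call without each of the 12 libraries (adjusted p = 0.00596 to 0.0295). It was the 1 called gene of 11 in the list of caspases and apoptosome genes, whose median was 0.03 against 0.00 over all genes tested.

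Among death receptor genes, Tnfrsf10b, which encodes the TRAIL receptor, was the 1 called of 8. Its normalized counts were 195, 165 and 164 in Veh-Veh, 143, 134 and 117 in Veh-Glut, 187, 192 and 181 in TFBTBOA-Veh, and 219, 279 and 214 in TFBTBOA-Glut. The groups with glutamate stood apart, and those without it overlapped. The inhibitor difference was 0.84 with glutamate (SE 0.191, limma adjusted p = 0.0466), 0.10 without it (adjusted p = 0.889) and 0.47 over both states (SE 0.118, adjusted p = 0.0234). The difference between the first 2 was 0.75 (limma adjusted p = 0.532). The call with glutamate was lost on leaving out each of 5 of its 6 libraries (adjusted p = 0.0502 to 0.167), all but Veh-Glut 1, and the call over both states on leaving out each of 6 of the 12, Veh-Veh 2 and 3, Veh-Glut 3, TFBTBOA-Veh 1 and 2 and TFBTBOA-Glut 2 (adjusted p = 0.0517 to 0.0621).

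**Figure D4:**
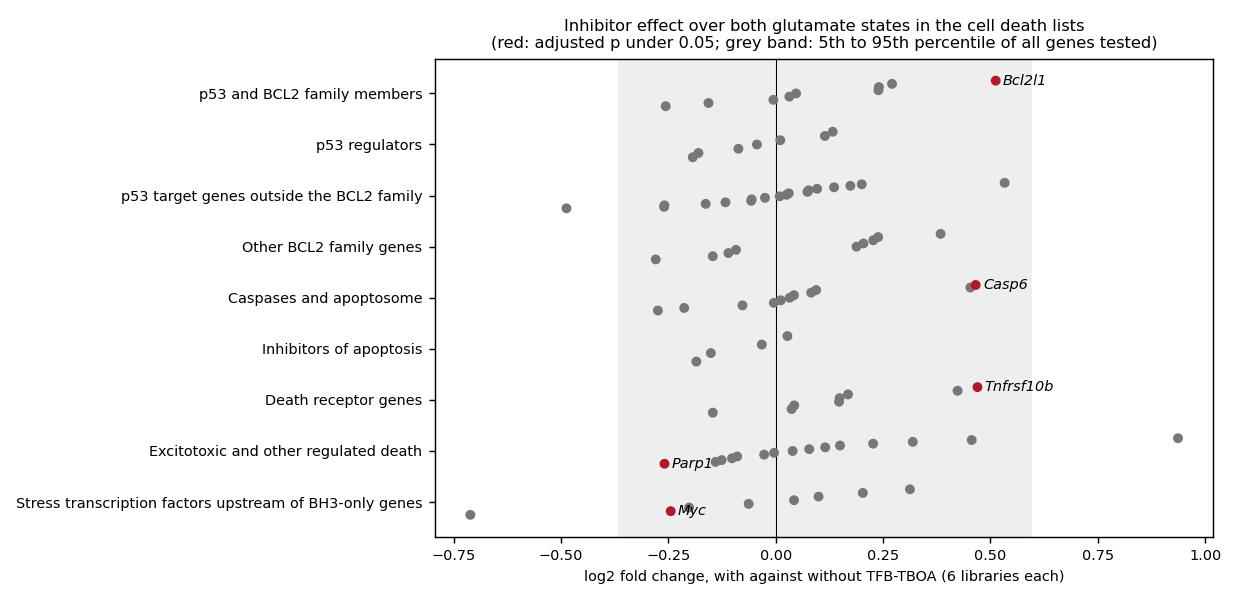
Log2 fold change for the inhibitor over both glutamate states (horizontal axis, 6 libraries on each side) of each gene tested in the member set and the 8 lists (rows), with red for an adjusted p under the threshold and a grey band from the 5th to the 95th percentile of all genes tested. Bcl2l1 at 0.51, Casp6 at 0.47 and Tnfrsf10b at 0.47 are red on the right, and Parp1 at -0.26 and Myc at -0.24 on the left.

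Parp1 and Myc fell with the inhibitor over both states. Parp1, a DNA damage sensor whose overactivity drives a form of excitotoxic death, had normalized counts of 5303, 4744 and 5104 in Veh-Veh, 5209, 6179 and 5610 in Veh-Glut, 4507, 4648 and 4615 in TFBTBOA-Veh, and 4473, 3773 and 4841 in TFBTBOA-Glut. Only the TFBTBOA-Glut well at 4841 exceeded any well without inhibitor. The difference was -0.26 (SE 0.0619, limma adjusted p = 0.0176), lost without Veh-Veh 1 or Veh-Glut 2 (adjusted p = 0.0508 and 0.0517). Parp1 was the 1 called of 15 tested in the list of excitotoxic and other regulated death, whose median was 0.04. Myc, a growth regulator that can sensitize cells to apoptosis, gave -0.24 (SE 0.0697, limma adjusted p = 0.0438), lost on leaving out each of 8 of the 12 libraries (adjusted p up to 0.104), as the 1 called of 8 stress transcription factors with a median of -0.01.

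No gene was called in the other 4 lists under the inhibitor over both states. The medians were -0.04 for 7 p53 regulators tested, 0.02 for 18 p53 target genes outside the BCL2 family, 0.19 for 9 other BCL2 family genes and -0.09 for 4 inhibitors of apoptosis, against 0.00 over all genes. For glutamate without inhibitor 15 of the 18 p53 targets had a negative fold change, with a median of -0.08 against 0.00 over all genes, and none was called. For glutamate with inhibitor 9 of the 18 were negative. For the inhibitor 12 were negative without glutamate and 9 with it. Cdkn1a, the p53-driven inhibitor of the cell cycle and singled out after its values were seen, had a mean of 11615 ± 641 for Veh-Veh and 10336 ± 1037 for Veh-Glut, beside 12186 ± 385 for TFBTBOA-Veh and 12509 ± 861 for TFBTBOA-Glut. Veh-Glut overlapped Veh-Veh. The TFBTBOA-Glut wells (11543 to 13193) stood above all Veh-Glut wells (9386 to 11442), where 23.2% of all genes had groups apart. The inhibitor gave 0.17 over both states (SE 0.0519, limma adjusted p = 0.0542). Mdm2, the ligase that degrades p53 and a p53 target itself, also named after its values were seen, gave 0.02 for glutamate without inhibitor (SE 0.0881, limma adjusted p = 0.953).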

How the data were processed

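The deposited values are a normalized count signal: the authors counted reads over GENCODE M14 genes with featureCounts and divided each library by its DESeq size factor. CASAVA 1.8.2, HISAT2 2.0.6 and Subread are credited to the submitters' processing notes. The study's methods give GRCm38p4 as the build and the notes GRCh38, and the methods state stranded counting although the kit keeps no strand. Upstream steps could not be varied here. Values in all 12 libraries were whole multiples of 1 read (tolerance 0.05). In TFBTBOA-Veh replicates 2 and 3, 1 read was worth nearly 1 unit.

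Limma 3.58.1 in R 4.3.3 (trended variance, two-sided) was fitted to log2(normalized count + 1), so folds of low genes are understated. The filter was a mean of at least 10, with Benjamini-Hochberg adjustment over all 14266 genes and a threshold of 0.05. Pairwise fits used their own 6 libraries, and the interaction and the inhibitor effect over both glutamate states used all 12. edgeR 4.0.16 and DESeq2 1.42.0 on recovered reads were alternatives, and the tests were checked on simulated data. In the simulated inhibitor comparison without glutamate, limma called 4 of 50 genes changed 1.25-fold and 19 of 50 changed 1.5-fold. Among the unchanged genes limma made 6 false calls and DESeq2 26. Small changes could thus go uncalled. Replicates correlated at r = 0.970 to 0.975, and every pair differed beyond sampling noise. Intervals cover the spread between wells only.

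Positions and exon lengths are from GENCODE M21, and promoters from RefSeq on GRCm38.p6. Promoter windows were searched for 8 of 9 members. Pmaip1 was left out of that search, so the motif counts do not cover it. The members and lists were chosen with earlier results of these data known. The genes named are the 9 members, every list gene past the threshold, and the 3 genes of highest Pearson r with a called member; exceptions are stated where they occur. Some genes of the lists are not reported here by name, though they are in the lists' counts.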

Additional observations from a re-analysis of the deposited data

How the results depend on the processing

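The number of members called stayed at 1 for the inhibitor over both glutamate states, and at 0 for both glutamate comparisons and the interaction, under every alternative and every left-out library run. For the inhibitor without glutamate and with glutamate it went from 1 to 0 with no filter on low values (Bcl2l1 adjusted p = 0.209 and 0.0514), where 28902 genes were tested. Leaving out 1 library gave 0 members in all 6 runs without glutamate and 0 to 1 with glutamate. With no filter Tnfrsf10b with glutamate (adjusted p = 0.154) and Myc over both states (0.0911) also lost their calls. The edgeR and DESeq2 fits for the interaction and for both states were added after seeing the data.

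None of the called genes changed sign in its called comparisons. In uncalled comparisons of the members, 42 values from runs with 1 library left out turned the sign, to a log2 fold change of at most 0.12 in size. A single run could turn several members. For glutamate with inhibitor the values ran from -0.029 to 0.056 for Bax, -0.11 to 0.0078 for Bbc3, -0.016 to 0.059 for Bcl2l1, -0.40 to 0.091 for Bcl2l11 and -0.029 to 0.082 for Trp53. For glutamate without inhibitor the values ran from -0.067 to 0.13 for Bbc3, -0.10 to 0.26 for Bcl2l11, -0.059 to 0.14 for Mcl1 and -0.027 to 0.092 for Trp53. For the inhibitor over both glutamate states the values ran from -0.0037 to 0.095 for Bbc3 and -0.043 to 0.039 for Pmaip1. For the inhibitor with glutamate the values ran from -0.063 to 0.065 for Bbc3 and -0.046 to 0.091 for Pmaip1. For the inhibitor without glutamate the values ran from -0.083 to 0.23 for Bak1, -0.012 to 0.18 for Bbc3, -0.37 to 0.12 for Bcl2l11 and -0.10 to 0.067 for Pmaip1. For the interaction the values ran from -0.18 to 0.017 for Bbc3, -0.046 to 0.14 for Bcl2, -0.056 to 0.11 for Pmaip1 and -0.070 to 0.063 for Trp53. The interaction for Trp53 also turned to 0.0022 with TMM scaling and 0.00093 with edgeR on recovered reads. The cause of these turns was not tested.

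Genes called higher and lower among all tested, in the order glutamate without and with inhibitor, inhibitor without and with glutamate, interaction and both states, were 19/4, 0/0, 132/15, 175/136, 0/2 and 588/485. With no filter they were 8/11, 3/6, 14/9, 29/14, 0/0 and 439/300, and with DESeq2 102/58, 0/1, 276/70, 428/434, 15/38 and 800/752. A minimum mean of 50 gave 29/10 for the first, and a single fit of all 12 libraries 28/8 for the first and 376/351 for the inhibitor with glutamate. Which filter or tool step caused these shifts was not tested, beyond the number of genes tested.

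After the group mean of each gene was subtracted, same-numbered wells of compared groups correlated at r = -0.0405 to 0.0774. Each well was compared with the 3 wells of the other group, and 7 of 12 matched their own number best. Wells of replicate 3 did so in every pairwise comparison (r = 0.0636 to 0.0774). Whether the replicate numbers mark paired wells was not tested. With the replicate block the member counts stayed at 0, 0, 1, 1, 0 and 1, and all-gene counts were 4/0, 0/0, 245/80, 230/229, 2/12 and 689/604. Depth limits Bak1 most, at 23 to 53 reads per library.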
